A study of Mus musculus with 2 samples.

Results

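Genes of cell-matrix adhesion were compared between the skin of newborn keratin 5 knockout mice (K5-/-) and that of newborn wild types. The set holds every integrin subunit gene on the array apart from Itga6 and Itgb4, the thrombospondin genes, and a list of matrix ligands and focal adhesion genes. Members were taken by gene symbol alone, from probe sets to which the platform annotation gives exactly 1 symbol. The rule uses no values, but it was drawn up with earlier results of these data known. This gave 69 probe sets for 42 genes, out of 8251 genes with such a probe set. Of the 25 genes the rule lists by name, 3 had no single-symbol probe set (Spp1, Ptk2 and Parva) and were not analysed here.

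The study asked which genes differ when the epidermis loses keratin 5, the defect modelled for epidermolysis bullosa simplex, a skin blistering disorder. Each group was 6 animals whose total RNA was pooled before labelling, so each genotype is 1 array and no value has a replicate. Tissue was taken right after birth. The labels name the K5-/- genotype without describing the allele, and give no strain. Their source names call the tissue epidermis, whereas the titles and the extraction protocol speak of skin. Dermal genes such as Col1a1 (48707 in K5-/- and 39256 in wild type) and keratinocyte genes such as Krt10 (37488 and 42588) were both bright, as were muscle genes such as Acta1 (41506 and 39728), so both pools held RNA of dermis and muscle as well as epidermis.

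Integrins are receptors made of an alpha and a beta subunit that span the plasma membrane. Outside the cell they bind laminins, fibronectin, thrombospondins and other matrix proteins. Inside it, talin and vinculin tie their tails to actin, and the kinases of the focal adhesion relay the signal. In skin, basal keratinocytes stand on a basement membrane of laminin, nidogen, perlecan and collagen IV, and fibroblasts, vessels, muscle and nerve have integrins and basement membranes of their own.

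No member differed 2-fold between the arrays. Of the 42 genes, 30 had a signal above the floor of 246.7 units on at least 1 array and count as measured, and 12 were below it on both and have no ratio. The floor is the 40th percentile of all values. Of the 30 measured genes, 19 were higher and 11 lower in K5-/- skin, with log2 ratios (K5-/- over wild type) between -0.27 and 0.93 and a median of 0.09. The share that was higher was 63.3% of the measured members and 53.9% of all 5976 measured genes, whose median was 0.04. As the mean over all probe sets of a gene, those shares were 56.7% and 54.1%. That mean counts a probe set below the floor on both arrays as unchanged, which draws a gene's log2 ratio towards 0. At least 2-fold higher were 0 members, against 1.54% of all measured genes, and at least 2-fold lower were 0 members, against 0.703%. At 1.5-fold, a threshold chosen after seeing that no member reached 2-fold, 4 members were higher and 0 lower, against 7.63% and 5.27% of all measured genes. With 1 array per genotype no test was possible, and the direction of the small ratios has no error estimate between animals.

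The only measure of error in these data is the disagreement between probe sets of the same gene. Over the 838 genes with 2 or more probe sets that cleared the floor on each array, it had a standard deviation of 0.30 (log2). Of the 30 measured members, 23 (76.7%) had a log2 ratio smaller in size than that, compared with 58.3% of all measured genes. Of the 7 that were larger, Thbs2, Src, Thbs3, Hspg2, Lama2, Itga7 and Fn1, every one was higher in K5-/- skin. Itga7 and Fn1, at 0.33 and 0.30, were barely larger, and the Src value is a bound. Itga7 had 3 probe sets, of which 2 cleared the floor on both arrays, at 0.33 and 0.26. As the mean over all 3, where the one below the floor counts as unchanged, Itga7 was at 0.20. Over all measured genes, larger ratios also lay more often on the higher side, 7.63% against 5.27% at 1.5-fold. The higher share of all genes past the spread of 0.30 was not counted.

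**Figure D1:**
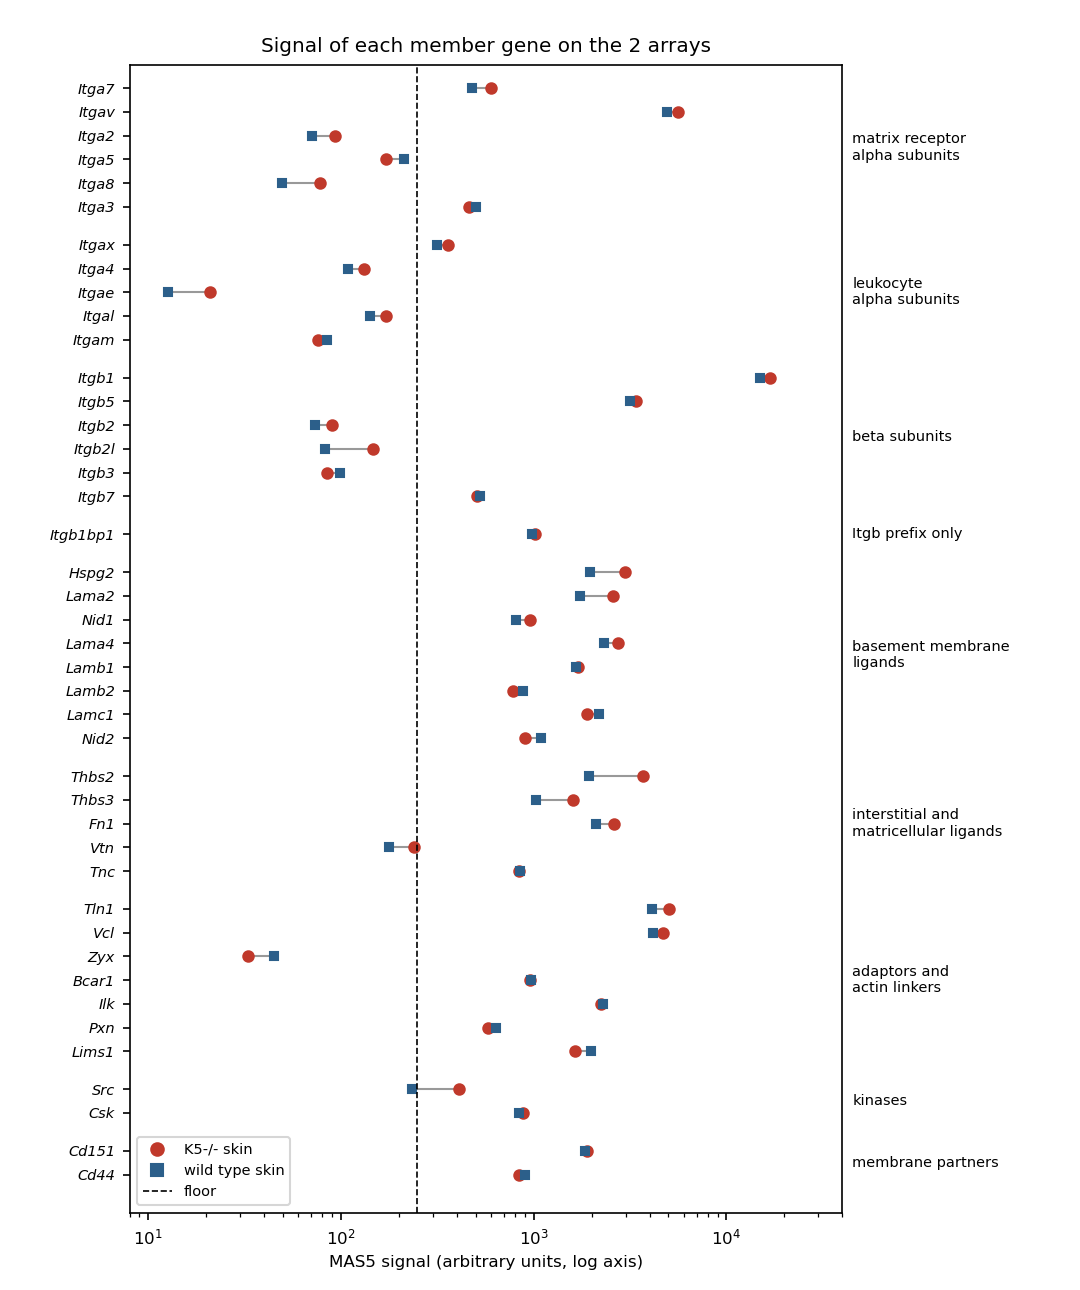
MAS5 signal (arbitrary units, log axis) of the 42 member genes on the K5-/- array (red circles) and the wild type array (blue squares), grouped by role, with the floor of 246.7 units as a dashed line. Each gene is its probe set with the highest mean signal. The widest gaps to the right of the floor belong to Thbs2, Thbs3, Hspg2 and Lama2, and 10 of the 17 integrin subunit genes lie left of it on both arrays.

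Among the matrix ligands, the highest ratios were those of the thrombospondins of the interstitial matrix. Thbs2 encodes thrombospondin 2, a secreted glycoprotein made by fibroblasts that restrains vessel growth, and Thbs3 encodes another thrombospondin. Thbs2 (Entrez Gene 21826) read 3709 in K5-/- skin and 1947 in wild type skin, 1.91-fold higher, and its log2 ratio of 0.93 exceeded that of 98.0% of measured genes. Thbs3 (Entrez Gene 21827) read 1605 and 1031, 1.56-fold higher. Both thrombospondin genes were thus above the wild type level, each on a single probe set.

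Fibronectin, the ligand of cell migration in wounds, followed at a smaller ratio. Fn1 read 2612 in K5-/- skin and 2115 in wild type skin, a log2 ratio of 0.30. Tenascin C, a matrix protein of healing and developing skin, was at nearly equal levels, with Tnc at 836 and 854. Vitronectin was not measured: Vtn read 239 and 179, below the floor on both arrays. Of the 4 measured genes in this group 3 were higher and 1 lower, and the median log2 ratio was 0.47.

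The basement membrane ligands were divided. All 8 were above the floor on both arrays, 5 were higher and 3 lower, and their median log2 ratio was 0.13. Hspg2, which encodes the heparan sulfate proteoglycan perlecan, read 2985 in K5-/- skin and 1960 in wild type skin, 1.52-fold higher. Lama2, the alpha chain of the laminin of muscle and nerve, read 2583 and 1745, 1.48-fold higher, just under the 1.5-fold threshold. Their log2 ratios, 0.61 and 0.57, exceeded those of 93.0% and 91.7% of measured genes. Lama4, the alpha chain of vessel laminins, followed at 2727 and 2315, a log2 ratio of 0.24.

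The beta and gamma chains with which Lama2 and Lama4 assemble did not share these ratios. Lamb1 read 1692 in K5-/- skin and 1660 in wild type skin, a log2 ratio of 0.03. Its second probe set read 1357 and 1516, at -0.16, so Lamb1 has no settled direction. Lamb2 read 780 and 878, at -0.17, and Lamc1, the gamma chain common to most laminins, read 1890 and 2181, at -0.21. The nidogens, which bridge laminin to collagen IV, went opposite ways: Nid1 read 961 and 812, at 0.24, while Nid2 read 899 and 1086, at -0.27. All of these lie inside the spread between probe sets.

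Promoters of the 4 matrix ligands with the highest ratios are shown because these genes had the largest ratios among the ligands. The sequences are RefSeq's for GRCm38.p6, read along the gene's own strand, and run from 250 bases before the annotated transcription start to 50 after it. Capitals mark matches, on either strand, to 5 motifs: the AP-1 site (TGANTCA), the GC box (GGGCGG), the TATA box (TATAAA), the TEAD site (GGAATG) and the CArG box of serum response factor. None of the matches overlapped another. The Thbs2 window is chr17:14694213-14694512 on the minus strand, that of Thbs3 is chr3:89214930-89215229 on the plus strand, that of Hspg2 is chr4:137468553-137468852 on the plus strand and that of Lama2 is chr10:27616893-27617192 on the minus strand.
Thbs2: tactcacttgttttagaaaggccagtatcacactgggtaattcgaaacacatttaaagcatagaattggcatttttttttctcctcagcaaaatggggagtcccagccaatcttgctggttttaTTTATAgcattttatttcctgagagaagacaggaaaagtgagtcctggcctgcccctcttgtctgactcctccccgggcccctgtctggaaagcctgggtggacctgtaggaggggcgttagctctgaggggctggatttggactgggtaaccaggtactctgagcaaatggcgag
Thbs3: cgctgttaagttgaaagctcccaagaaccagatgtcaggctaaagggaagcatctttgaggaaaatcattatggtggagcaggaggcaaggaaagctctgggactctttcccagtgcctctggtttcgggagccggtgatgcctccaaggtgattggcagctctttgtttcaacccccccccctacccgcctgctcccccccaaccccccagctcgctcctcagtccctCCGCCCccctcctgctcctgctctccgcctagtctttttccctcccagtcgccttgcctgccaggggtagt
Hspg2: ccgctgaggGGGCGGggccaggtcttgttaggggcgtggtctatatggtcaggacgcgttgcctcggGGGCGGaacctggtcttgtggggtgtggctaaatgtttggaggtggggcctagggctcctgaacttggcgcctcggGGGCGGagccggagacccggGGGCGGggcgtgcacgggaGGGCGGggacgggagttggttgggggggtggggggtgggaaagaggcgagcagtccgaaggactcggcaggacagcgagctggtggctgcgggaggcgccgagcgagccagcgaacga
Lama2: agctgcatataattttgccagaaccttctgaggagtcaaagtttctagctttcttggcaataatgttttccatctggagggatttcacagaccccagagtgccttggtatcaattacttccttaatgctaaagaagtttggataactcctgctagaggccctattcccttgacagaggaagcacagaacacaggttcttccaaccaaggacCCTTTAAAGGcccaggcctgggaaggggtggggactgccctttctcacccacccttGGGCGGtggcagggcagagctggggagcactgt

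A GC box was in the windows of Thbs3, Hspg2 and Lama2 and not in that of Thbs2, and no other motif was in more than 1 of the 4. Thbs2 held 1 match, a TATA box on the opposite strand (printed as TTTATA). The marked stretch starts 126 bases before the transcription start. Thbs3 held 1 GC box, starting 21 bases before its start, and Hspg2 held 5 GC boxes and no other match, in a window of 70.3% G and C. Lama2 held a GC box inside the transcribed part and a CArG box that starts 39 bases before its start. Among the 40 windows of the 32 member genes found in the table, 26 held a GC box (65.0%), compared with 35.66% of all 32851 windows, and the members' windows had a median G and C content of 59.0% against 52.7%. The CArG box was in 2 of the 40 (5.0%), those of Lama2 and Vcl, compared with 1.63% of all windows. AP-1 sites were in 3 of the 40 windows (7.5%, against 7.81% of all), TATA boxes in 5 (12.5%, against 13.62%) and TEAD sites in 4 (10.0%, against 14.66%). The windows compared with were not limited to genes on the array, and the shares among array genes were not counted. The GC box difference can therefore not be read as a trait of adhesion genes. A match describes letters in a window and is not a measured binding site.

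Most markers of dermal fibroblasts were higher on the same array as these ligands, some of them only slightly. Of 7 fibroblast markers 6 were higher, with a median log2 ratio of 0.27 and a summed signal of 183566 in K5-/- skin and 156487 in wild type skin. Of all measured genes, 53.9% were higher. The receptor gene Pdgfra was at 1.02 and Col1a1 at 0.31, Dcn and Fbln1 were close to equal at 0.05 and 0.07, and Lum was at -0.22. No fibroblast marker was below the floor. All 8 measured skeletal muscle markers were higher as well, with a median of 0.24 and a summed signal of 71126 and 60148, and Mb was below the floor on both arrays. The 3 Schwann cell markers on the array, Mbp, Pmp22 and Sox10, were all lower, with a median of -0.17 and a summed signal of 6574 and 7315. Both lists stand beside Lama2, the laminin chain of muscle and nerve. In such bulk tissue, more cells of a type and more RNA per cell cannot be told apart, and the part of these cell types in the ligand ratios was not tested.

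**Figure D2:**
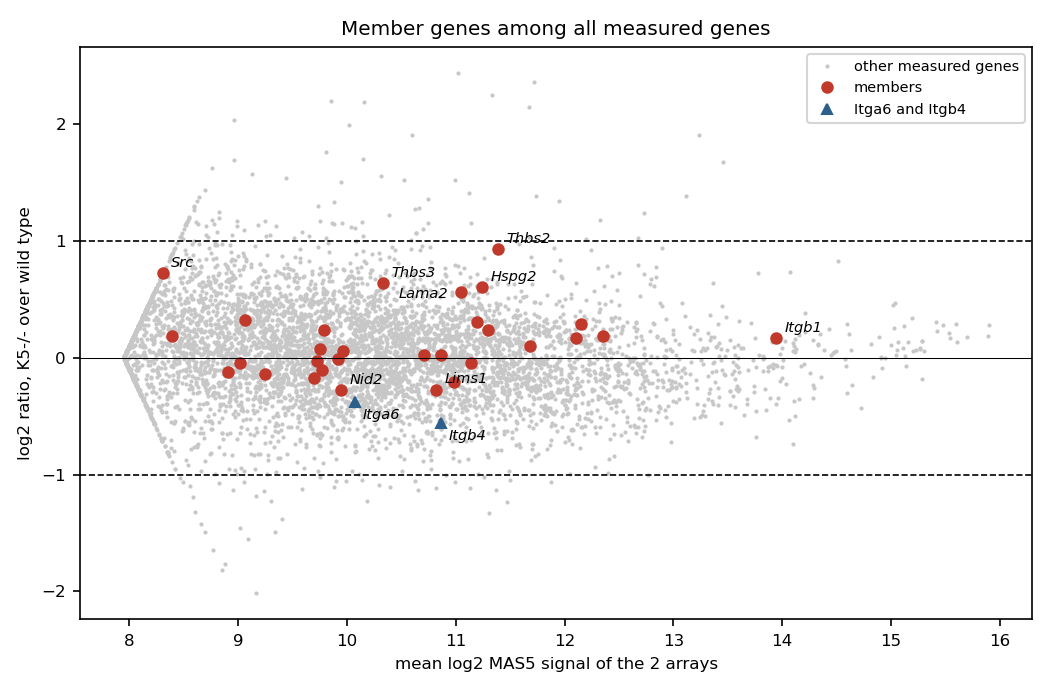
Log2 ratio of K5-/- over wild type (vertical axis) against the mean log2 signal of both arrays (horizontal axis) for all 5976 measured genes (grey), the 30 measured members (red) and the 2 integrin genes outside the set (blue triangles); dashed lines mark 2-fold. All members lie inside the dashed lines, with Thbs2 nearest to the upper one at 0.93 and Nid2 lowest at -0.27.

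The integrin subunits showed ratios close to 1. Of 17 subunit genes, 7 were measured, of which 5 were higher and 2 lower; their log2 ratios had a median of 0.17 and a range from -0.12 to 0.33. None reached 1.5-fold. Itgb1, the beta subunit shared by most matrix receptors, read 16752 in K5-/- skin and 14911 in wild type skin, a log2 ratio of 0.17, and its second probe set was at 0.02. Itgb5, which pairs with the alpha V subunit, read 3408 and 3170, at 0.10, with 0.17 from a second probe set. Both ratios were smaller than the probe set spread of 0.30.

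Among the alpha subunits of matrix receptors, Itga7, the laminin receptor subunit of muscle, had the highest ratio. It read 600 in K5-/- skin and 479 in wild type skin, a log2 ratio of 0.33, and a second probe set was at 0.26. Itga3, the laminin receptor subunit of basal keratinocytes, read 459 and 499, at -0.12, with -0.13 from its second probe set. Itgav, the alpha V subunit that recognises vitronectin and fibronectin, was not settled. Its brightest probe set read 5577 and 4902, at 0.19, and another read 221, below the floor, in K5-/- skin and 379 in wild type skin, a bound of -0.62. As the mean over its 3 probe sets, Itgav was at -0.14.

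The subunits that remain in this class were not measured. Itga2, a collagen receptor subunit, read 93.6 in K5-/- skin and 71.0 in wild type skin. Itga5, the fibronectin receptor subunit, read 172 and 214, and Itga8 read 78.1 and 49.3. They were below the floor on both arrays, where signals carry too little information for a ratio.

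Integrin subunits of leukocytes and platelets were mostly below the floor. Itgam, Itgal and Itgb2, which form receptors of myeloid cells and lymphocytes, read 76.0, 172 and 89.7 in K5-/- skin and 85.1, 142 and 73.4 in wild type skin. Itga4 and Itgae were at most 131 on either array. Itgb3, the beta subunit of the platelet fibrinogen receptor, read 85.0 and 98.4, and Itgb2l, a relative of Itgb2, read 146 and 82.2. The 2 exceptions were Itgax, a dendritic cell and macrophage subunit, at 359 and 314 (log2 ratio 0.19), and Itgb7, a leukocyte subunit, at 508 and 525 (-0.05).

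Macrophage markers were measured and were higher on the K5-/- array. All 8 measured macrophage markers were higher, with a median log2 ratio of 0.58 and a summed signal of 12955 in K5-/- skin and 8722 in wild type skin. Adgre1, which encodes the macrophage antigen F4/80, was at 0.97, and Aif1 was below the floor on both arrays. Ptprc, the pan-leukocyte antigen CD45, read 197 and 175, also below the floor. Of 4 platelet markers on the array, Gp1bb, Gp5 and Pf4 were below the floor on both arrays and Gp9 in K5-/- skin only.

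Itga6 and Itgb4, the subunits of the hemidesmosome receptor that anchors basal keratinocytes to laminin, lie outside the set and were lower. Itga6 read 943 in K5-/- skin and 1227 in wild type skin, a log2 ratio of -0.38. Itgb4 read 1532 and 2254, at -0.56. Both are further below 0 than the lowest measured member of the set, Nid2 at -0.27.

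They belong to a list of 19 other basement membrane and hemidesmosome genes on the array, of which 16 were measured. Their median log2 ratio was -0.27, 11 being lower and 5 higher, and 0 differed 2-fold. Col4a5, a collagen IV chain of epithelial basement membranes, was lowest at -0.76 (301 in K5-/- skin and 512 in wild type skin), and Plec, the linker plectin, was highest at 0.28. The other 4 that were higher, named after their values were seen, were the collagen genes Col4a2 at 0.24, Col7a1 at 0.23, Col18a1 at 0.19 and Col4a1 at 0.18, the last encoding with Col4a2 the common collagen IV of basement membranes. Laminin chains of the epidermal basement membrane, singled out after their values were seen, had unequal ratios. Lamb3 read 1288 and 2102, at -0.71 (-1.04 as the mean over its probe sets), Lama5 read 1374 and 2127, at -0.63 (-0.40 as that mean), and Lama3 read 1007 and 1028, at -0.03.

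Few basal keratinocyte markers could be set beside these genes. Of 5 markers, the 2 that were measured, Trp63 at -0.54 and Col17a1 at -0.29, were lower. Col17a1 is itself in the list of other basement membrane and hemidesmosome genes, and its ratio is smaller in size than the probe set spread of 0.30. Only Trp63 is thus a measured marker from outside that list. Krt5, Krt14 and Krt15 were below the floor on both arrays, with Krt5, the targeted gene, at 81.2 in K5-/- skin and 46.6 in wild type skin. The knockout can therefore not be checked from its own transcript. The part of the basal cells in the difference between Itga6, Itgb4 and the set was not tested.

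**Figure D3:**
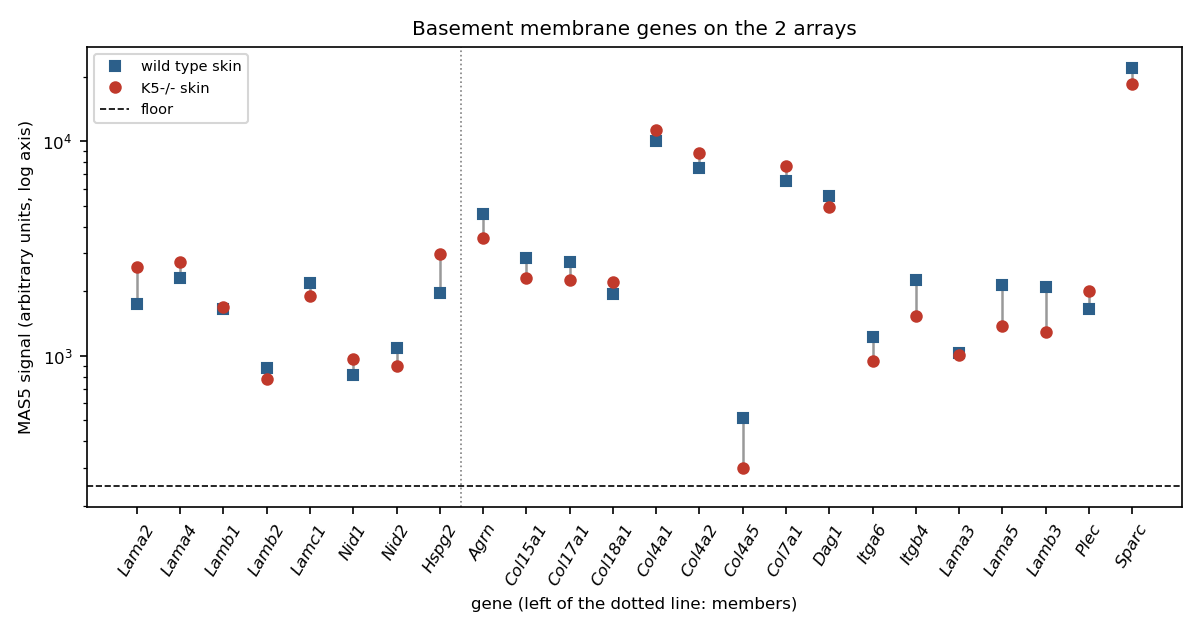
MAS5 signal (arbitrary units, log axis) on the wild type (blue squares) and K5-/- (red circles) arrays of the 8 basement membrane ligands of the set, left of the dotted line, and the 16 measured genes of the related list, right of it, with the floor dashed; levels can be compared within a gene and not between genes. On the left 5 are higher and 3 (Lamb2, Lamc1 and Nid2) lower in K5-/- skin, and on the right 5 (Col18a1, Col4a1, Col4a2, Col7a1 and Plec) are higher and 11 lower.

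The proteins that carry the integrin signal to actin were close to equal on both arrays. Of 7 adaptor and linker genes, 6 were measured. Their median log2 ratio was -0.02, and 2 were higher and 4 lower. Tln1 encodes talin, which binds integrin tails and switches the receptor on. Its brightest probe set read 5035 in K5-/- skin and 4106 in wild type skin, at 0.29, while another read 2665 and 1512, at 0.82, and the third was at 0.29. All 3 were higher, and the size of the Tln1 ratio depends on the probe set. Vcl, which encodes vinculin, read 4690 and 4163, at 0.17, with 0.03 from its second probe set.

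Ilk, a pseudokinase at the integrin tail, was close to equal, and Lims1, its partner PINCH, was slightly lower. Lims1 read 1645 in K5-/- skin and 1987 in wild type skin, at -0.27, and Ilk read 2229 and 2294, at -0.04. The scaffold genes Pxn (paxillin) and Bcar1 (p130Cas) were at -0.14 and -0.01. Zyx, which encodes zyxin, read 32.9 and 44.7 and was not measured. The ratios of Lims1, Ilk, Pxn and Bcar1 were all smaller than the probe set spread.

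Of the kinases, Src stood above the others in ratio but at a dim level. Src, the founding member of its tyrosine kinase family, read 408 in K5-/- skin and 235 in wild type skin, where it lay just below the floor. With this scaling and floor it was at least 1.65-fold higher, a log2 ratio of 0.72. That ratio was 0.60 with the pseudocount, 0.61 with the lowess correction, 0.65 with quantile normalization and 0.80 with the 25th percentile floor. Src was the only member above the floor on 1 array alone. When the 60th percentile served as the floor, it lay below on both arrays. Csk, the kinase that holds Src inactive, read 882 and 838, a log2 ratio of 0.07.

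The membrane partners were at nearly the same level. Cd44, the hyaluronan receptor, read 840 in K5-/- skin and 902 in wild type skin, at -0.10. Cd151, a tetraspanin that binds laminin receptors, read 1881 and 1845, at 0.03. Its 3 probe sets above the floor ran from -0.21 to 0.38 and crossed 0. Itgb1bp1, which enters the set by its prefix and encodes a protein that binds the Itgb1 tail, was at 0.06, with probe sets from -0.04 to 0.23.

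Agreement between probe sets limits how far single ratios can be read. Of the 42 genes, 19 had more than 1 probe set, and in 9 a minimum of 2 cleared the floor on each array. In 6 of these 9 the ratios had the same sign, in Itga3, Itga7, Itgb1, Itgb5, Tln1 and Vcl, and in 3, Cd151, Itgb1bp1 and Lamb1, they did not. The standard deviation between probe sets over the 9 genes was 0.19. Thbs2, Thbs3, Hspg2, Lama2, Fn1 and Src each had 1 probe set, so their ratios could not be checked in this way. Nor could those of Cd44, Csk, Itgb7, Lama4, Lamc1 and Tnc, which had several probe sets but only 1 above the floor.

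**Figure D4:**
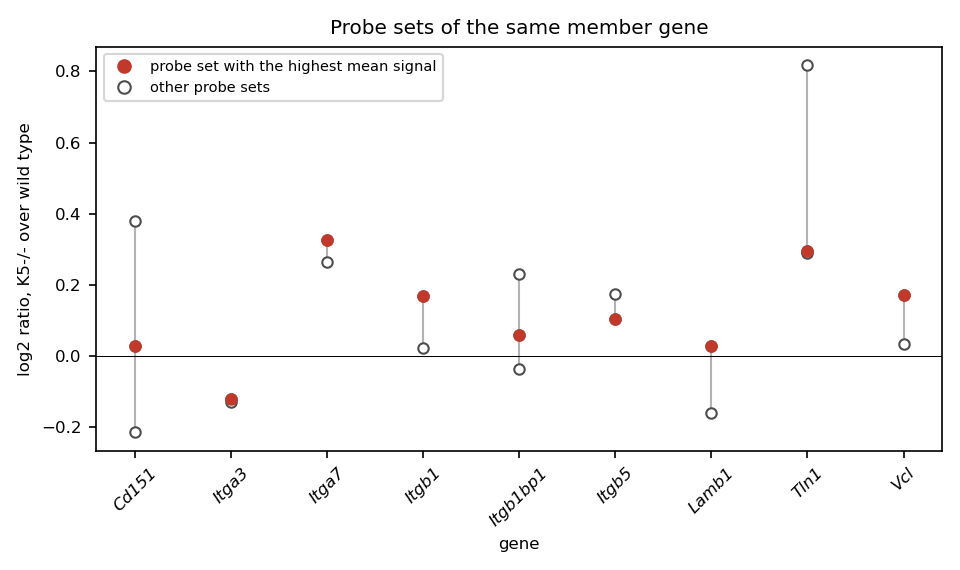
Log2 ratio of K5-/- over wild type (vertical axis) for each probe set that cleared the floor on each array, shown for the 9 member genes that have several. Red marks the probe set with the highest mean signal and open circles the others. The widest ranges are those of Cd151 (0.59) and Tln1 (0.53), and the points of Itga3 nearly coincide.

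Other genes of the focal adhesion, from a list of signalling and actin-linking genes outside the set, were divided. Of 50 on the array 45 were measured, 23 higher and 22 lower. Their median log2 ratio was 0.04, beside 0.04 for all measured genes, and 0 were at least 2-fold different. The highest was Pik3ca, the catalytic subunit of phosphoinositide 3-kinase, at 0.82 (1009 in K5-/- skin and 571 in wild type skin). The lowest was Pdlim1, a LIM protein that binds alpha-actinin, at -0.87 (1638 and 2993).

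Of 27 integrin ligands outside the set 22 were measured, 16 higher and 6 lower, with a median of 0.27. The 16 are 72.7% of the list, beside 53.9% of all measured genes. At least 2-fold higher were 2 of the 22, beside 1.54% of all measured genes. Ccn1, a matricellular ligand of the alpha V integrins and an immediate early gene, read 3456 in K5-/- skin and 1202 in wild type skin, a log2 ratio of 1.52. Vwf, the platelet-binding factor of endothelium, read 600 and 289, at 1.05, and was 2-fold higher in fewer settings. It was at 0.85 to 0.94 with the pseudocount, quantile normalization and the lowess correction, and below a 60th percentile floor on both arrays. As the mean over its probe sets Vwf was at 0.53, a mean in which any probe set below the floor on both arrays counts as unchanged. Ccn2, a relative of Ccn1, was lowest, at -0.74 (612 and 1021). Endothelial markers, Vwf among them, had 6 of 8 measured genes higher, a median of 0.22 and a summed signal of 8680 and 7758, with Flt1 below the floor on both arrays.

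Tetraspanins and other membrane partners outside the set did not lean either way. All 15 were measured, 7 higher and 8 lower, with a median of -0.03 and 0 at least 2-fold different. With quantile normalization that median was 0.06. Plaur, the urokinase receptor, was highest at 0.83 (491 in K5-/- skin and 276 in wild type skin), and Emp2 was lowest at -0.45 (960 and 1311).

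**Figure D5:**
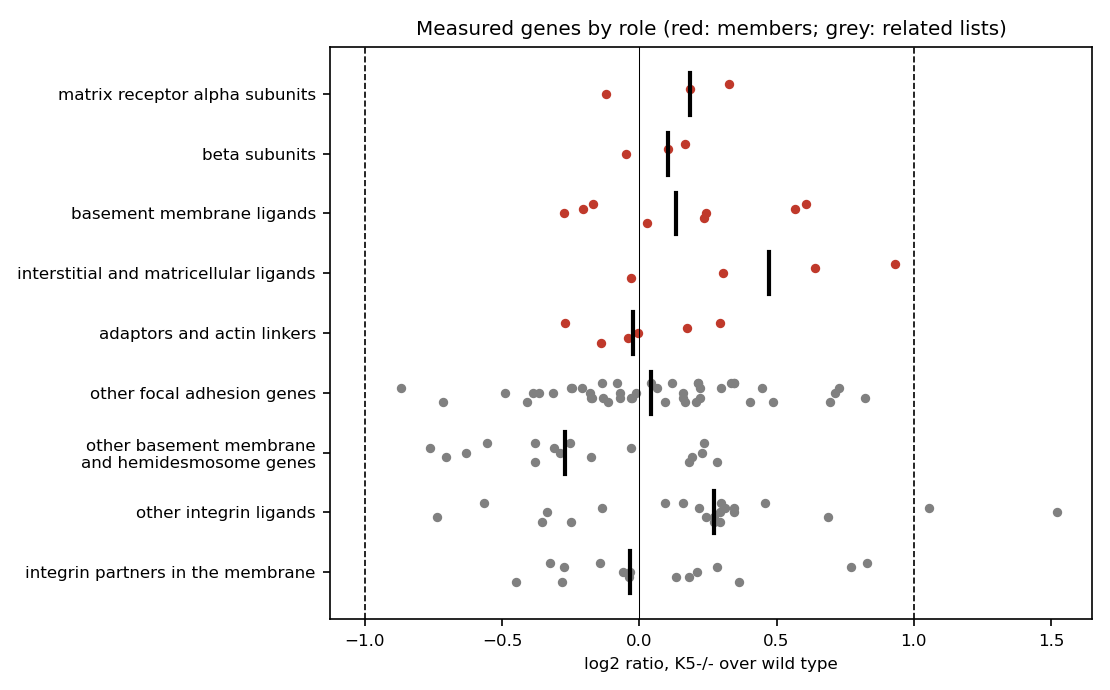
Log2 ratio of K5-/- over wild type (horizontal axis) for measured genes, by role of the members (red, the 5 roles with at least 3 measured genes) and for the 4 related lists (grey). Black bars are medians and dashed lines mark 2-fold; vertical offsets within a group only separate the points. The interstitial ligands have the highest median, 0.47, and the other basement membrane and hemidesmosome genes the lowest, -0.27.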

How the data were processed

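Skin RNA of 6 K5-/- and of 6 wild type newborn mice was pooled by genotype and read on 1 array each. The deposited values are intensities on a linear scale, 1 per probe set, and the submitters' processing notes name MAS5; its version, scaling target and detection calls are not given in the sources used here. Both arrays were scaled to the same 2% trimmed mean over 12422 non-control probe sets, signals below the 40th percentile of all values were raised to it, and log2 was taken. A gene was represented by its probe set with the highest mean signal and counted as measured when above the floor on at least 1 array. Summed signals of marker lists include genes below the floor and follow the brightest probe sets, so they need not match the median ratio. For smooth muscle markers the sum was 3775 in K5-/- skin and 4058 in wild type skin, while the median log2 ratio was 0.52. Because MAS5 sets a common overall level, these values cannot show whether the pools differed in RNA per cell.

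No test was run, since 1 array per group leaves no residual degree of freedom; the number of arrays limits the precision. Results are signals, log2 ratios and counts past a fold threshold, computed with Python 3.11.15, numpy 2.4.6 and pandas 2.3.3. The calculation was tested on simulated data with shifts beyond 2-fold in genes far above the floor. That test does not show how well smaller ratios, or those near the floor, are recovered. Symbols came from the platform annotation, and all 42 member genes were found in a RefSeq table of GRCm38.p6.

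The members and the related and marker lists were chosen with earlier results of these data known. Named outside the set are Krt5, Itga6, Itgb4, marker genes, and from each related list the genes at least 2-fold different and the highest and lowest. The laminin chains Lama3, Lama5 and Lamb3, the collagens Col4a1, Col4a2, Col7a1 and Col18a1 and the 1.5-fold threshold were added after the values were seen. Alternatives were 2 other floors, a pseudocount of 100, quantile normalization, a lowess correction, the mean over probe sets, plain probe sets, and genes above the floor on both arrays only. In the mean over probe sets, a probe set below the floor on both arrays counts as unchanged. A smaller ratio in that setting is therefore not always a disagreement between probe sets.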

Additional observations from a re-analysis of the deposited data

Results flagged for a closer look

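A probe set to which the annotation gives 2 symbols, 1 of them starting with Thbs, was left out of the set because its gene cannot be named. It read 5766 in K5-/- skin and 3509 in wild type skin, a log2 ratio of 0.72, above the wild type level and in the direction of Thbs2 and Thbs3. Which of the 2 genes it reports was not tested.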

How the results depend on the processing

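The counts of members at least 2-fold different stayed at 0 in both directions under all 8 alternative settings. The median log2 ratio of the members ran from 0.04 with quantile normalization to 0.14 with plain probe sets only. The share of measured members that were higher ran from 56.7% (17 of 30) as the mean over probe sets to 66.7% (16 of 24) when the 60th percentile was the floor, beside 54.1% and 50.4% of all measured genes in those settings. The number at least 1.5-fold higher was between 3 and 5. Thbs2 lay between 0.90 with the pseudocount and 0.97 with quantile normalization, so its distance from 2-fold is small beside the probe set spread of 0.30. Hspg2 was at 0.58, under 1.5-fold, with the pseudocount. Tln1 was at 0.82 with plain probe sets only and 0.47 as the mean over probe sets, because the probe set that represents it differs. Of the members measured both ways, Itgav and Lamb1 had the opposite sign as the mean over probe sets, and Lamb1 with plain probe sets only. No other member changed sign in a setting that measured it. With plain probe sets only, 24 members were measured. Cd151, Cd44, Itgav, Itgb1, Lamc1 and Nid2 were not among them, so their sign could not be checked there. Among the related lists, Madcam1, an integrin ligand at a bound of -0.57, was at least 2-fold lower when the 25th percentile was the floor (a bound of -1.49) and with the pseudocount (-1.01), and Lamb3 as the mean over probe sets (-1.04). No paired analysis was possible because each genotype has 1 array, and for the same reason no replicate could be left out. Signals near or below the floor limit the leukocyte integrins, Vtn, Zyx and Src.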

Other observations

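Markers of other cell types gave values that belong to no comparison above. All 6 measured hair follicle markers were higher in K5-/- skin, with a median log2 ratio of 0.36, and Krt71 was at 0.79. Of 7 suprabasal keratinocyte markers 5 were higher, with a median of 0.29. Mast cell markers had a median of -0.005 over 5 genes, and adipocyte markers 0.11 over 3. The smooth muscle markers were split, with Acta2 at -0.67 and Myh11 at 0.55. Of 5 measured neutrophil markers 2 were higher and 3 lower, while Ltf, Mpo and Ngp were below the floor on both arrays. Of 5 T and NK cell markers only Thy1, which fibroblasts also express, was measured, at -0.54. Of 5 bone and cartilage markers, Col2a1, Col11a2 and Ibsp were below the floor on both arrays. Of 4 pan-leukocyte markers, Coro1a was at 0.48, Laptm5 at 0.40 and Cd52 at -0.30.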
